A study of Homo sapiens with 4 samples.

Results

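The genes described here encode the folding machinery of the endoplasmic reticulum (ER) and the unfolded protein response that adjusts it: the ER stress sensors, the luminal chaperones, the disulfide enzymes, the translocon and the proteins of ER-associated degradation. They are the rows of the deposited FPKM files (a fragment count scaled by transcript length and library size, by the authors) whose symbol is 1 of 42 listed names. All 42 were found among the 60487 genes of each file, each on a single row, and 41 reached 1 FPKM in at least 1 library and entered the tests. DERL3 did not, and was listed at 0 to 0.175 FPKM.

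The cells are HCC1937, an established human breast cancer line. Cells with wild-type BRCA1 put back (wtBRCA1, genotype labelled wild type) were compared with cells carrying the vector (genotype labelled BRCA1 -/-). Each line was given OTX-015, an inhibitor of the BET bromodomain proteins, or its solvent DMSO. The 4 groups are therefore wtBRCA1 with OTX-015, wtBRCA1 with DMSO, vector with OTX-015 and vector with DMSO, and each is 1 library of poly(A)-selected RNA. Dose and time of treatment, and whether either line is a single clone, are not stated in the labels. RNA came from whole cultures, in which fewer cells of a type and less RNA per cell cannot be told apart. No level below has a replicate, and the depth of the libraries is unknown, because the files hold FPKM and no counts.

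Proteins that enter the secretory pathway are threaded through the Sec61 channel into the ER, where Hsp70-type and Hsp90-type chaperones, the lectins calnexin and calreticulin and the protein disulfide isomerases fold them. Proteins that fail to fold are drawn back into the cytosol by a membrane complex built around SEL1L and the ubiquitin ligase HRD1 (SYVN1). When unfolded chains accumulate, the sensors IRE1 (ERN1), PERK (EIF2AK3) and ATF6 raise chaperone and degradation genes through the transcription factors spliced XBP1, ATF4 and the released part of ATF6, the first and last of which bind the ER stress response element (ERSE) in promoters. Splicing of XBP1 and cleavage of ATF6 are not visible in a gene-level FPKM.

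Promoter sequences bear on this group because that element is its best known shared feature. The members were listed for their known part in the same response, so the list and the element are not independent. The shares below describe the group and are no test of it. RefSeq promoters (GRCh38.p14, 250 bases before to 50 after a start) were matched by symbol for 39 members, with 50 promoters among them. The ERSE was searched on both strands as CCAAT, any 9 bases, then CCACG. It was present for 7 of the 39 members (17.9%) against 25 of all 27305 genes of the table (0.0916%), a table that also holds non-coding genes. The 7 are CALR, CANX, CRELD2, HSP90B1, HSPA5, PDIA6 and XBP1, so these members make up 7 of the 25 genes that hold the exact letters. Each site is printed 5′ to 3′ in the direction of the motif, with the CCAAT and CCACG boxes in capitals.
HSPA5: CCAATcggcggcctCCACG
HSP90B1 upstream site: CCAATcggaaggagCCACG
HSP90B1 downstream site: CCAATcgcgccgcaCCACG
CALR: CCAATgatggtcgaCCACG
CANX: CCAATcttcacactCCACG
CRELD2: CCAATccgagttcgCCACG
PDIA6: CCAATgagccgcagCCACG
XBP1: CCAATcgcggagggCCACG
The sites of CALR and CRELD2 and the downstream site of HSP90B1 lie on the strand opposite to the gene. The outer boxes are identical because the search fixed them, and the 9 bases between them differ in every site.

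A second form, ERSE-II, was searched in the same way as ATTGG, any base, then CCACG and was held by HERPUD1, HYOU1 and SDF2L1, 3 of 39 members (7.69%) against 19 of all genes (0.0696%). HYOU1 carried 2 copies. The UPRE, searched as TGACGTGG, was held by DNAJC10, HYOU1, SSR3 and SSR4, 4 of 39 members (10.3%) against 0.927% of genes, and its copy in HYOU1 overlaps an ERSE-II. A gene was counted when any of its promoters held the motif. Other promoters of SSR3 and SSR4 lacked the UPRE, and other promoters of CANX, PDIA6 and XBP1 lacked the ERSE. Any of these 3 motifs was present for 13 of 39 members and for 1.08% of all genes. A match describes letters in a window and shows no binding. Whole promoters are printed for HYOU1 and CALR, the members with the smallest adjusted p for OTX-015 below, and for HSPA5 and XBP1, which carry an ERSE and did not pass that test. Fixed bases of the motifs are in capitals, on the strand of the gene.
HYOU1, chr11:119057156-119057455, minus strand: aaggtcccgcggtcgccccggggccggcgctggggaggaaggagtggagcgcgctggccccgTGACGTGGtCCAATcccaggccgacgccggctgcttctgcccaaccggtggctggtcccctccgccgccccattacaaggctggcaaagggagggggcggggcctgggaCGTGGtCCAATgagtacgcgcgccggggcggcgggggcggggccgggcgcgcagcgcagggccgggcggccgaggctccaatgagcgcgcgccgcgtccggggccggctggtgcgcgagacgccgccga
CALR, chr19:12938359-12938658, plus strand: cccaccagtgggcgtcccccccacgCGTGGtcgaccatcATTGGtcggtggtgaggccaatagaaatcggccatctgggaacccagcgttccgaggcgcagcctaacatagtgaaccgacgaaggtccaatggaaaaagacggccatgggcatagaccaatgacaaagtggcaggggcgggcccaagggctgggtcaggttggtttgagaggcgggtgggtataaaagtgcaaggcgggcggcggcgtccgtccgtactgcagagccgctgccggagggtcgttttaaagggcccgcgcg
HSPA5, chr9:125241294-125241593, minus strand: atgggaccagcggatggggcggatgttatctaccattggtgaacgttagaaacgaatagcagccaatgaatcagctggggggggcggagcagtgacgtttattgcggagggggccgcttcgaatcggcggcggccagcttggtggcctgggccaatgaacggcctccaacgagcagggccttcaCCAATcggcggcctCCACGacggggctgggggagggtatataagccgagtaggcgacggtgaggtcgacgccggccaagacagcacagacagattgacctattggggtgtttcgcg
XBP1, chr22:28800520-28800819, minus strand: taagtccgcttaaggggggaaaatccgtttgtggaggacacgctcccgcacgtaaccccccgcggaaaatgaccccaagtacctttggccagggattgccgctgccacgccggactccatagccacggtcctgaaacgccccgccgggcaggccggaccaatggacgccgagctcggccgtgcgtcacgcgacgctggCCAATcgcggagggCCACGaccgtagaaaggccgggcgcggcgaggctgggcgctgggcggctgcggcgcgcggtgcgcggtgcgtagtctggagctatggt
In HYOU1 and CALR the capitals of ERSE-II and ERSE read as CGTGG followed by CCAAT or ATTGG, since they lie on the other strand there.

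The libraries differed in ways that touch every value below. Summed over all genes, FPKM came to 1477103 in wtBRCA1 cells with OTX-015 and 962378 with DMSO, and to 1496107 in vector cells with OTX-015 and 909314 with DMSO. The 10 highest genes held 33.8% and 39.2% of that sum in the OTX-015 libraries of wtBRCA1 and vector cells, against 15.3% and 17.4% in the DMSO libraries. BRCA1 itself was listed at 2712 and 171 FPKM in the wtBRCA1 libraries with OTX-015 and DMSO, and at 40.8 and 37.2 in the vector libraries, so the line labels held in both treatments. The lines were 6.02 log2 apart in BRCA1 with OTX-015 and 2.17 with DMSO. In wtBRCA1 cells the treatment and the level of BRCA1 therefore cannot be told apart. Of 10 epithelial markers, 9 to 10 were at 1 FPKM or more in each library, with sums of 7003 to 26964 FPKM, while 12 markers of blood, stromal and endothelial cells summed to 24.4 to 55.1 FPKM with 6 to 9 of them at 0.

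**Figure D1:**
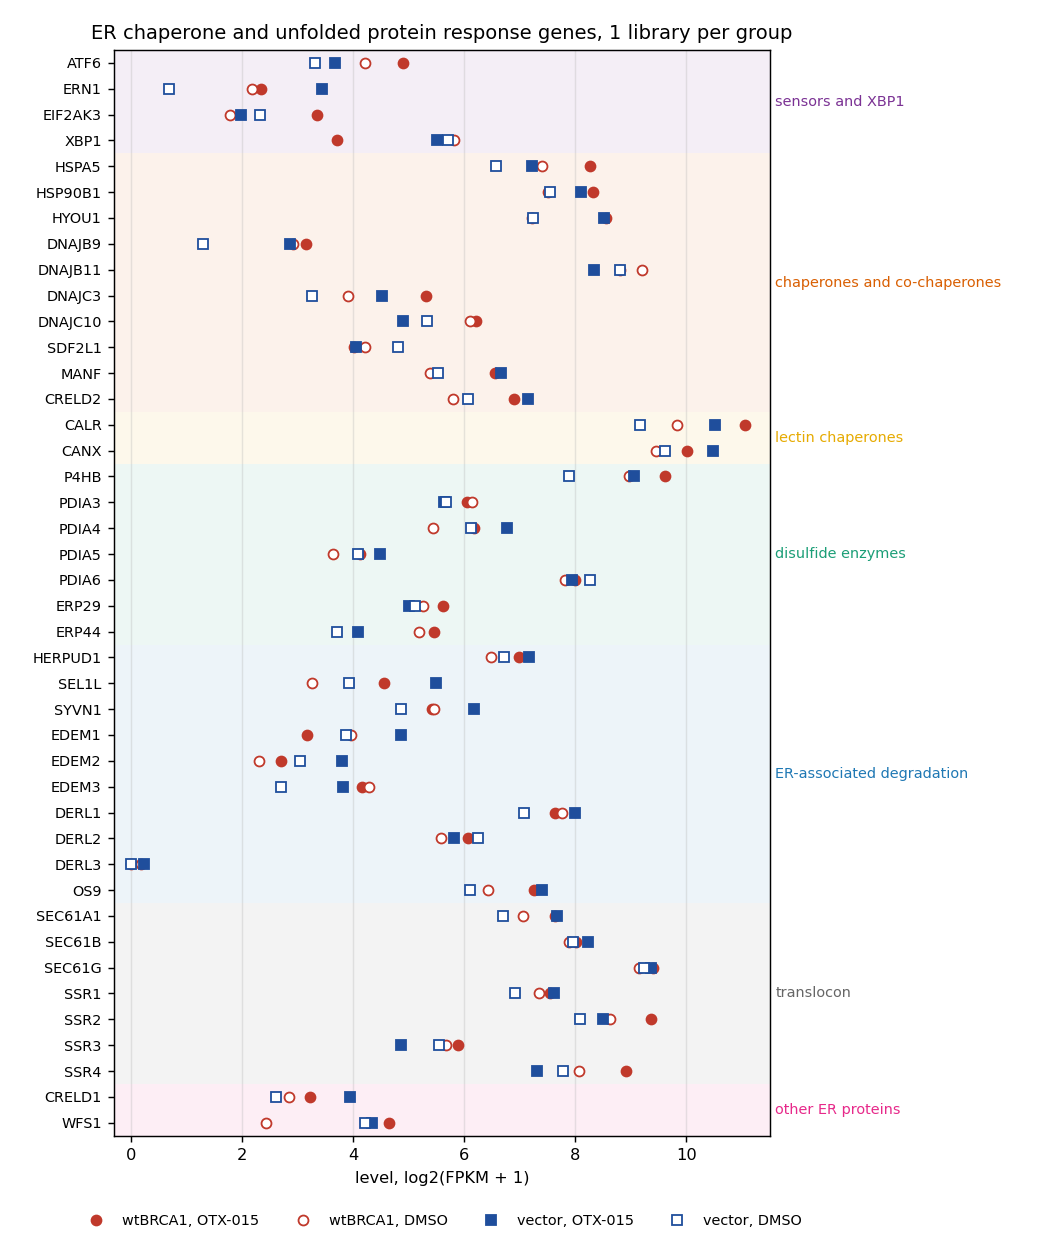
Level of each of the 42 genes in the 4 libraries, on a log2(FPKM + 1) axis, 1 point per library, grouped by role. CALR, CANX, SEC61G and P4HB lie to the right, and for HYOU1, MANF and CRELD2 both filled OTX-015 points lie right of both open DMSO points.

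The members were spread over a wide range of levels per transcript length. CALR, CANX, SEC61G, P4HB and DNAJB11 were among the highest, while ERN1, EIF2AK3, DNAJB9, EDEM2 and CRELD1 stayed below 15 FPKM in every library. Summed over all members, the level was 9459 FPKM with OTX-015 and 6237 with DMSO in wtBRCA1 cells, a ratio of 1.52, and 8093 and 5286 FPKM in vector cells, a ratio of 1.53. As a share of the summed FPKM of its library the group held 0.640% with OTX-015 and 0.648% with DMSO in wtBRCA1 cells, and 0.541% and 0.581% in vector cells. The higher FPKM sums of the OTX-015 libraries and the higher member sums thus moved together, and effects after rescaling to equal sums are given with the counts below. This share depends in part on few genes. The highest gene of each library held 14.8% and 17.3% of the sum with OTX-015 in wtBRCA1 and vector cells, against 2.6% and 3.7% with DMSO. CALR and CANX together made up 33.4% and 35.6% of the member sum in the OTX-015 libraries of wtBRCA1 and vector cells, against 25.8% and 25.6% in the DMSO libraries.

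The first comparison asked which members differed between OTX-015 and DMSO in both lines. These members, HYOU1, DNAJC3, MANF, CRELD2, CALR, P4HB and SEL1L, rose, 7 in all, and none fell. Here rose and fell refer to a limma fit on log2(FPKM + 1) over all 18294 genes with line and treatment as terms, at a Benjamini-Hochberg adjusted p of 0.05. With 1 library per group this fit has 1 residual degree of freedom per gene, which is the difference between the responses of the lines. The p sets the size of the effect against a spread taken only in small part from that difference and mainly from all genes at a like level. A small p therefore does not show that the lines agree. The response of wtBRCA1 cells minus that of vector cells was 0.06 log2 for HYOU1 and -0.51 for P4HB, with SEs of 0.24 and 0.23. Nor does the p measure the spread between cultures. The 7 are 17.1% of the 41 members, against 3.66% of all genes tested that rose and 6.83% of the 8245 genes with a mean of at least 10 FPKM, a level chosen after seeing the data that 36 of the members reach, all 7 included. The shares that fell were 2.67% and 4.41% of those genes, against 0 of 41 members. Epithelial markers moved with OTX-015 in the same fit too, with CDH1 (1.31 log2) and KRT8 higher and KRT7 (-0.76 log2) lower out of 10, and their part in the results was not tested. At an unadjusted p under 0.05 in the same limma fit, 16 of the 41 members were higher and 1 was lower. Over all 18294 genes these counts were 2302 and 1867.

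The calls depended on the fit. CALR and HYOU1 were the only members called with a pseudocount of 0.1 or 5, with a filter of 5 FPKM and after median-of-ratios rescaling. No member was called higher with no filter, under quantile normalization, with the mean-variance trend off, or after rescaling each library to the same FPKM sum (TPM), and 669 genes rose and 488 fell as reported against 110 and 1293 under TPM. Under TPM the median effect of the members was -0.10 log2, with -0.48 for all genes. As reported these medians were 0.57 and 0.03. The median of the members was thus above that of all genes by 0.38 log2 under TPM and by 0.54 as reported, and 31 and 33 of 41 members lay above the median of all genes.

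**Figure D2:**
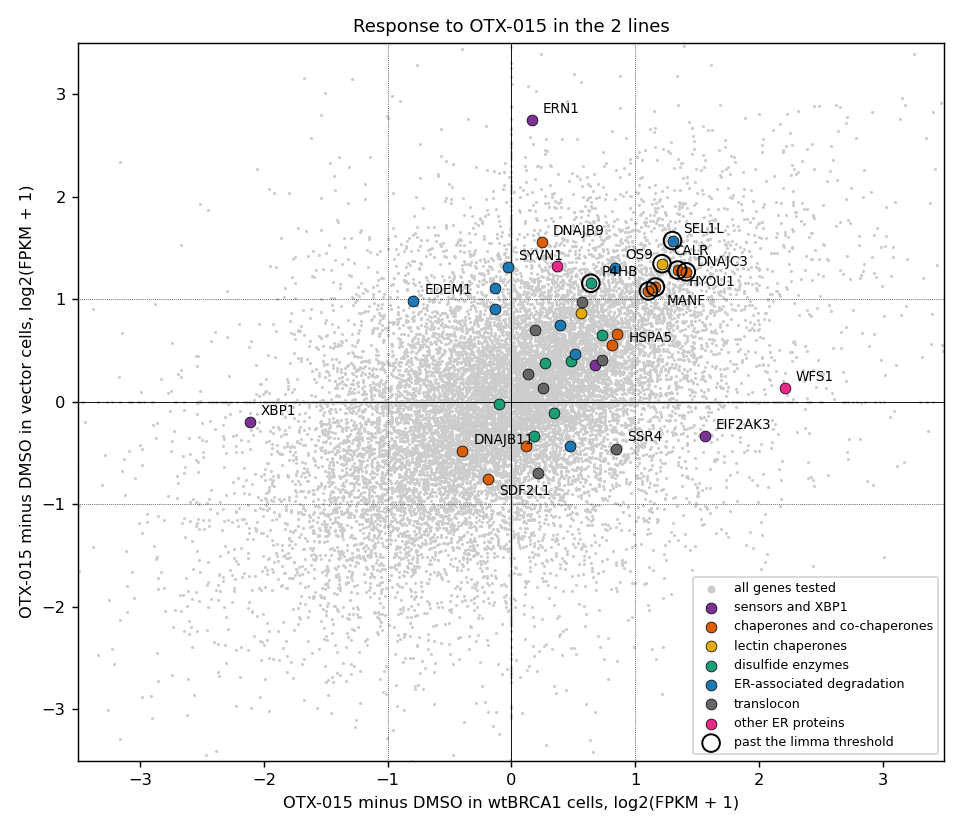
OTX-015 minus DMSO on the log2(FPKM + 1) scale in wtBRCA1 cells (horizontal) and vector cells (vertical), 1 point per gene, members coloured by role and all genes tested in grey, with genes beyond the axes not drawn. The ringed members rose in the limma fit and lie above 0 in both lines, while ERN1 and WFS1 lie far along a single axis.

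Before any fit, 26 of 41 members were higher with OTX-015 in both lines and 4 were lower in both, against 33.0% and 30.2% of all genes. Among genes with a mean of at least 10 FPKM, 22 and 4 of 36 members compare with 41.1% and 31.2%. A difference of at least 1 log2 in both lines was found for 6 members, HYOU1, DNAJC3, MANF, CRELD2, CALR and SEL1L (14.6% of members, against 4.57% of all genes and 6.33% of genes with a mean of at least 10 FPKM). No member was that much lower in both, where 4.43% and 4.62% of those genes were. In wtBRCA1 cells alone 8 members were at least 1 log2 higher and 1 lower, where 12.9% and 13.4% of all genes were. In vector cells 13 were higher and 0 lower, where 13.0% and 12.7% of all genes were. These pairs of libraries have no test. After rescaling to equal FPKM sums, 0 members were at least 1 log2 higher in both lines.

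Chaperones and co-chaperones had the most calls, 4 of 10, where 3.66% of all genes rose and 6.83% of those with a mean of at least 10 FPKM. HYOU1 kept its call under 7 of 13 other settings, CRELD2 under 3, and DNAJC3 and MANF under 2 each. HYOU1, an Hsp70-like exchange factor for BiP (ENSG00000149428, chromosome 11, 119044189 to 119057202 in GENCODE 29, hg38), was at 377 FPKM with OTX-015 and 148 with DMSO in wtBRCA1 cells, and at 365 with OTX-015 and 149.5 with DMSO in vector cells. Both treated libraries lay above both DMSO libraries, and the lines were nearly level with each other. The effect was 1.31 ± 0.24 log2 (SE, limma adjusted p = 0.0166). MANF, a secreted and ER-resident protein that binds BiP, was at 92.5 and 40.7 FPKM with OTX-015 and DMSO in wtBRCA1 cells, and at 99.7 and 45.4 in vector cells. CRELD2, a secreted ER stress protein, was at 119 and 54.5 FPKM with OTX-015 and DMSO in wtBRCA1 cells, and at 141 and 66.3 in vector cells. For MANF and CRELD2 the treated libraries again lay above both DMSO libraries, with effects of 1.14 ± 0.29 log2 (SE, limma adjusted p = 0.0499) and 1.09 ± 0.28 log2 (adjusted p = 0.0495), just inside the threshold. DNAJC3 (p58IPK), a BiP co-chaperone that inhibits eIF2α kinases, was at 38.8 FPKM with OTX-015 and 13.9 with DMSO in wtBRCA1 cells, and at 21.9 and 8.51 in vector cells. Its effect was 1.34 ± 0.34 log2 (SE, limma adjusted p = 0.0464).

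BiP itself (HSPA5), the main Hsp70 of the ER and a standard readout of ER stress, did not pass. It was at 305 FPKM with OTX-015 and 168 with DMSO in wtBRCA1 cells, and at 149 and 93.8 in vector cells, a difference of 0.76 ± 0.26 log2 (SE, limma adjusted p = 0.114). The treated vector library lay below the wtBRCA1 library with DMSO, so the treatments overlapped across the lines. HSP90B1 (GRP94), the ER Hsp90, was at 319 and 181 FPKM with OTX-015 and DMSO in wtBRCA1 cells, and at 273 and 185 in vector cells (0.69 ± 0.24 log2). The J-domain protein DNAJB9, which restrains IRE1, was at 7.91 and 6.51 FPKM in wtBRCA1 cells and at 6.24 and 1.46 in vector cells with OTX-015 and DMSO, so nearly all of its difference lay in the vector line. The remaining co-chaperones did not pass either. DNAJB11 (ERdj3), a J-domain partner of BiP, was at 445 FPKM with OTX-015 and 586 with DMSO in wtBRCA1 cells, and at 321 and 449 in vector cells, lower in both lines. SDF2L1, which works in a complex with ERdj3, was at 15.2 and 17.5 FPKM with OTX-015 and DMSO in wtBRCA1 cells, and at 15.6 and 26.9 in vector cells. DNAJC10 (ERdj5), a reductase with a J domain, was at 73.3 and 67.5 FPKM with OTX-015 and DMSO in wtBRCA1 cells, and at 28.8 and 39.3 in vector cells. DNAJB11 and SDF2L1 thus had differences of opposite sign to those of HYOU1, MANF and CRELD2. Of the members with an ERSE-II, HYOU1 and HERPUD1 were higher with OTX-015 in both lines and SDF2L1 was lower in both. The part of the motif was not tested.

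CALR, the soluble lectin chaperone that binds calcium (ENSG00000179218, chromosome 19, 12938578 to 12944489), had the smallest adjusted p of the group. It was at 2119.7 FPKM with OTX-015 and 911 with DMSO in wtBRCA1 cells, and at 1456 and 572 in vector cells, which gave 1.28 ± 0.18 log2 (SE; adjusted p in limma = 0.00591). Its membrane-bound relative CANX was at 1037 and 701 FPKM with OTX-015 and DMSO in wtBRCA1 cells, and at 1426 and 783 in vector cells. Both treated libraries lay above both DMSO libraries for CANX too, but its 0.71 ± 0.19 log2 missed the threshold (limma adjusted p = 0.0542), though it was called in a fit of protein-coding genes only.

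Among the disulfide enzymes 1 of 7 rose, where 3.66% of all genes did, so this count is no result about the role. P4HB, the founding protein disulfide isomerase, was at 779 FPKM with OTX-015 and 499 with DMSO in wtBRCA1 cells, and at 529 and 237 in vector cells, which gave 0.90 ± 0.23 log2 (SE; adjusted p in limma = 0.0463). PDIA4, an isomerase found with BiP in chaperone complexes, was at 71.4 and 42.5 FPKM with OTX-015 and DMSO in wtBRCA1 cells, and at 108 and 68.3 in vector cells (0.69 ± 0.29 log2, not past the threshold). The lines sat at different levels there, with a similar step within each. PDIA5 had the next highest difference, with 16.4 and 11.4 FPKM in wtBRCA1 cells and 21.3 and 16.0 in vector cells with OTX-015 and DMSO. PDIA6, which acts with BiP and dampens IRE1, was at 254 and 224 FPKM with OTX-015 and DMSO in wtBRCA1 cells, and at 245 and 308 in vector cells. PDIA3 (ERp57), the isomerase that works with the lectins, was at 65.4 and 70.0 FPKM in wtBRCA1 cells and at 49.0 and 49.7 in vector cells with OTX-015 and DMSO. Its lectin partner CALR rose while PDIA3 differed by -0.06 ± 0.30 log2, a difference between these genes that was not tested. PDIA3 has a processed copy, PDIA3P1, listed at 28.7 to 62.3 FPKM, so its reads could have been divided. ERP29, a redox-inactive relative, was at 47.9 and 37.5 FPKM in wtBRCA1 cells and at 31.0 and 33.4 in vector cells with OTX-015 and DMSO.

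Of the 9 degradation genes tested, 1 rose, where 3.66% of all genes did, so this count too is no result about the role. SEL1L, the scaffold that holds HRD1 to its substrates, was at 22.6 FPKM with OTX-015 and 8.57 with DMSO in wtBRCA1 cells, and at 43.9 and 14.1 in vector cells. Both treated libraries were above both DMSO libraries, and the effect was 1.44 ± 0.34 log2 (SE, limma adjusted p = 0.0373). OS9, the lectin that hands glycoproteins to SEL1L, was at 152 and 85.0 FPKM with OTX-015 and DMSO in wtBRCA1 cells, and at 168 and 67.4 in vector cells, and missed the threshold (1.07 ± 0.28 log2, limma adjusted p = 0.0541), though it was called among protein-coding genes only and with robust estimation. HRD1 itself, SYVN1, did not pass. It was at 41.9 FPKM with OTX-015 and 42.8 with DMSO in wtBRCA1 cells, and at 71.4 and 28.1 in vector cells. In wtBRCA1 cells these libraries were level, while in vector cells the treated library was the higher.

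EDEM1, a mannosidase-like protein that marks glycoproteins for removal, was at 8.03 FPKM with OTX-015 and 14.6 with DMSO in wtBRCA1 cells, and at 28.0 and 13.7 in vector cells. EDEM3 was at 16.8 and 18.5 FPKM with OTX-015 and DMSO in wtBRCA1 cells, and at 13.1 and 5.53 in vector cells. DERL1, a membrane protein of the export channel, was at 198 and 217 FPKM with OTX-015 and DMSO in wtBRCA1 cells, and at 253 and 134 in vector cells. In wtBRCA1 cells EDEM1 differed by -0.79 log2, and EDEM3 and DERL1 by -0.13 each. In vector cells EDEM1, EDEM3 and DERL1 were higher with OTX-015, and none passed. DERL2, a relative of DERL1, went the other way, with 66.0 and 47.1 FPKM in wtBRCA1 cells and 55.1 and 74.7 in vector cells with OTX-015 and DMSO. HERPUD1, which recruits substrates to HRD1 and is a sensitive ER stress gene in many cells, was at 126 and 87.9 FPKM with OTX-015 and DMSO in wtBRCA1 cells, and at 144 and 104 in vector cells (0.49 ± 0.27 log2, not past the threshold). EDEM2 was at 5.46 and 3.92 FPKM in wtBRCA1 cells and at 12.9 and 7.27 in vector cells with OTX-015 and DMSO.

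Of the sensors and XBP1, 0 of 4 passed, where 3.66% of all genes rose and 2.67% fell, so this count is no result about them. ERN1 (IRE1), the kinase and nuclease that splices XBP1, was at 4.08 FPKM with OTX-015 and 3.53 with DMSO in wtBRCA1 cells, and at 9.85 and 0.614 in vector cells. Its vector library with DMSO stood below the others, and at such a level a log2(FPKM + 1) difference understates the ratio. EIF2AK3 (PERK), which phosphorylates eIF2α, was at 9.21 and 2.46 FPKM with OTX-015 and DMSO in wtBRCA1 cells, and at 2.95 and 3.99 in vector cells. ATF6, the membrane-bound transcription factor, was at 28.8 and 17.6 FPKM with OTX-015 and DMSO in wtBRCA1 cells, and at 11.7 and 8.88 in vector cells. XBP1 was at 12.0 FPKM with OTX-015 against 55.3 with DMSO in wtBRCA1 cells, and at 44.8 and 51.6 in vector cells. It was the only member at least 1 log2 lower with OTX-015 in either line, and its difference over both lines was -1.16 ± 0.44 log2 (SE, limma adjusted p = 0.153). So the largest single step of ERN1 lay in vector cells and those of EIF2AK3 and XBP1 in wtBRCA1 cells.

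The translocon, which imports nascent chains, had 0 of 7 calls, where 3.66% of all genes rose, so a count of 0 is no result about it. Its median effect was 0.20 log2, against 0.03 for all genes. SEC61A1, the channel itself, was at 197 and 132 FPKM with OTX-015 and DMSO in wtBRCA1 cells, and at 202 and 103 in vector cells (0.77 ± 0.26 log2, not past the threshold). Its small partners SEC61B and SEC61G differed less. SEC61B was at 257 and 235 FPKM with OTX-015 and DMSO in wtBRCA1 cells, and at 299 and 248 in vector cells, and SEC61G at 674 and 566 FPKM in wtBRCA1 cells and 658 and 600.0 in vector cells. None of the 4 subunits of the TRAP complex, which assists translocation, passed. SSR2 was at 656 and 395 FPKM with OTX-015 and DMSO in wtBRCA1 cells, and at 359 and 271 in vector cells. SSR4 was at 481 and 267 FPKM in wtBRCA1 cells and at 158 and 218 in vector cells with OTX-015 and DMSO. SSR3 was at 58.0 and 49.997 FPKM in wtBRCA1 cells and at 28.0 and 45.8 in vector cells with OTX-015 and DMSO. SSR1 was at 186 and 162 FPKM in wtBRCA1 cells and at 195 and 119 in vector cells with OTX-015 and DMSO. SSR3 and SSR4 were thus higher with OTX-015 in wtBRCA1 cells and lower with it in vector cells.

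Of the remaining ER proteins, WFS1, a membrane protein that limits ATF6 signalling, was at 24.0 FPKM with OTX-015 and 4.40 with DMSO in wtBRCA1 cells, and at 19.3 and 17.6 in vector cells. Its wtBRCA1 library with DMSO stood below the others. CRELD1, the membrane-anchored relative of CRELD2, was at 8.32 and 6.22 FPKM with OTX-015 and DMSO in wtBRCA1 cells, and at 14.4 and 5.14 in vector cells. Neither passed.

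Several members overlap a gene on the opposite strand that the files list at a high level, and the sources used here do not say whether counting used strand. The antisense gene at CALR, CTC-425F1.4, was at 2734 FPKM with OTX-015 and 1167 with DMSO in wtBRCA1 cells, and at 1680.3 and 765 in vector cells. That at P4HB, RP11-498C9.2, was at 2499 and 1172 FPKM with OTX-015 and DMSO in wtBRCA1 cells, and at 1926 and 647 in vector cells. The entry at HYOU1, RP11-110I1.6, was at 601 and 238 FPKM with OTX-015 and DMSO in wtBRCA1 cells, and at 525 and 274 in vector cells. All of these differed between treatments in the direction of their partner, as did RP11-571M6.7 at OS9 (826 and 479 FPKM with OTX-015 and DMSO in wtBRCA1 cells, 838 and 425 in vector cells), and the part of shared reads in these results was not tested. CRELD2 overlaps ALG12 (up to 26.8 FPKM), DNAJB9 overlaps PNPLA8 (18.9), PDIA6 overlaps ATP6V1C2 (314), DERL1 overlaps TBC1D31 (285), SYVN1 overlaps MRPL49 (72.2) and, on its own strand, FAU (435), and EIF2AK3 overlaps AC104134.2 (47.7). MANF, DNAJC3, SEL1L, HSPA5 and XBP1 shared their locus with no other gene above 10 FPKM.

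**Figure D3:**
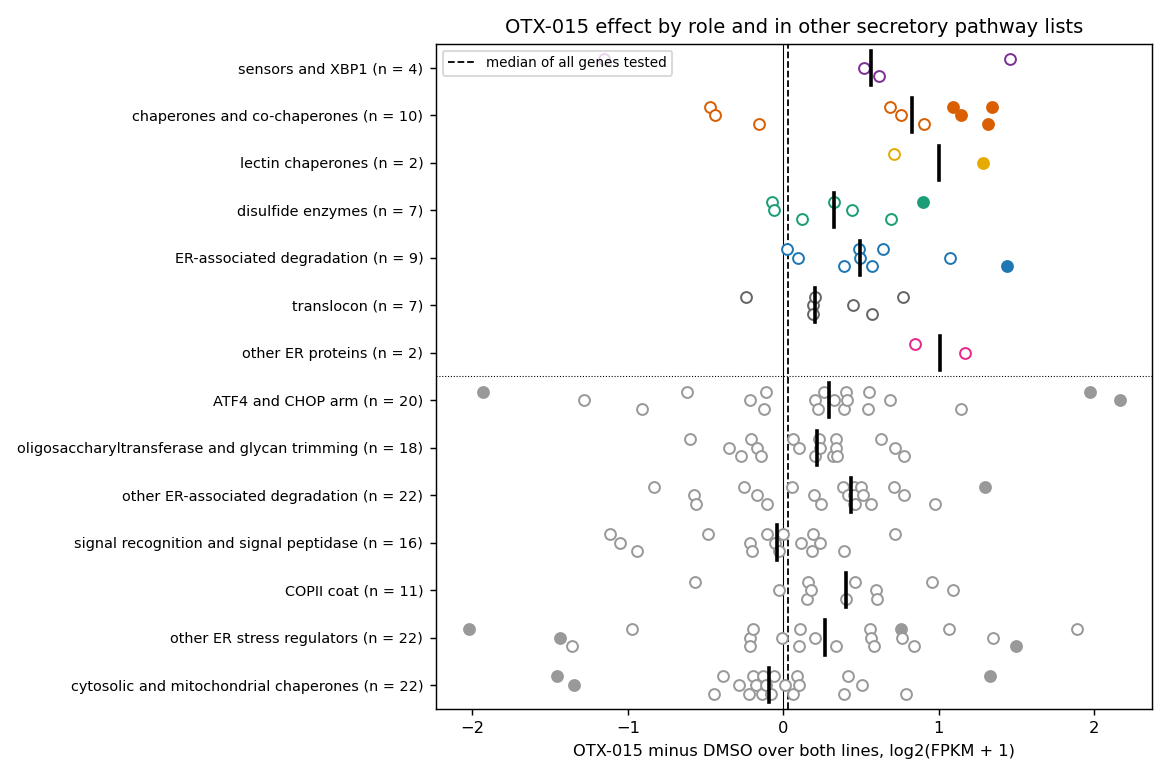
Effect of OTX-015 over both lines in log2(FPKM + 1), 1 point per gene, for the 7 roles above the dotted line and 7 other lists below it, with filled points past the limma threshold, a thick bar at each median and a dashed line at the median of all genes (0.03). The median of the chaperones is 0.83 and both lectin chaperones lie above 0.7, and the cytosolic and mitochondrial chaperones lie around 0.

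Genes of the same pathway outside the list were read in the same fit, without a test of any list. Over all genes tested, 3.66% rose and 2.67% fell, so small counts in these lists are no result about them. The ATF4 and CHOP arm, which PERK controls, had 2 of 20 genes that rose and 1 that fell, with a median of 0.29 log2. ASNS, the asparagine synthetase, was at 139 FPKM with OTX-015 and 19.05 with DMSO in wtBRCA1 cells, and at 52.3 and 17.5 in vector cells, which gave 2.16 ± 0.37 log2 (SE; adjusted p in limma = 0.0136). ATF3, a stress-induced transcription factor, was at 26.6 and 6.51 FPKM with OTX-015 and DMSO in wtBRCA1 cells, and at 10.1 and 1.64 in vector cells (1.97 ± 0.36 log2, limma adjusted p = 0.0166). NUPR1, a chromatin-associated stress protein, fell, with 5.68 and 12.4 FPKM with OTX-015 and DMSO in wtBRCA1 cells, and 6.20 with DMSO in vector cells, where the OTX-015 library listed it at 0. ATF4 itself was at 73.2 and 54.7 FPKM with OTX-015 and DMSO in wtBRCA1 cells, and at 89.0 and 87.4 in vector cells. DDIT3 (CHOP) was at 51.2 and 19.5 FPKM with OTX-015 and DMSO in wtBRCA1 cells, and at 15.1 and 22.4 in vector cells, the same arrangement as EIF2AK3. Neither ATF4 nor DDIT3 passed.

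Other ER stress regulators had 2 of 22 genes that rose and 2 that fell. QSOX1, a sulfhydryl oxidase, rose, with 707 and 303 FPKM in wtBRCA1 cells and 254.5 and 73.5 in vector cells with OTX-015 and DMSO. TMBIM6, an ER membrane protein that limits cell death, rose by 0.76 log2. ATF6B, the relative of ATF6, fell to 34.0 FPKM with OTX-015, against 90.3 with DMSO, in wtBRCA1 cells, and to 18.1, against 120.2, in vector cells (-2.03 ± 0.36 log2, SE, limma adjusted p = 0.0162). KDELR1, a receptor that returns escaped chaperones to the ER, fell to 16.8 FPKM with OTX-015, against 51.6 with DMSO, in wtBRCA1 cells, and to 20.5, against 52.2, in vector cells (-1.43 ± 0.32 log2, limma adjusted p = 0.0319). None of 18 oligosaccharyltransferase and glycan trimming genes, 16 signal recognition and signal peptidase genes or 11 COPII coat genes passed, with medians of 0.21, -0.04 and 0.40 log2. At an adjusted p above 0.05 a difference may still exist. Among 22 cytosolic and mitochondrial chaperones, 1 rose and 2 fell, where 3.66% and 2.67% of all genes did. Their median was -0.09 log2. DNAJB1, the heat-inducible Hsp40, rose by 1.33 log2, while the small heat shock protein HSPB1 fell by 1.45 on the log2 scale and the mitochondrial co-chaperonin HSPE1 fell by 1.35.

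**Figure D4:**
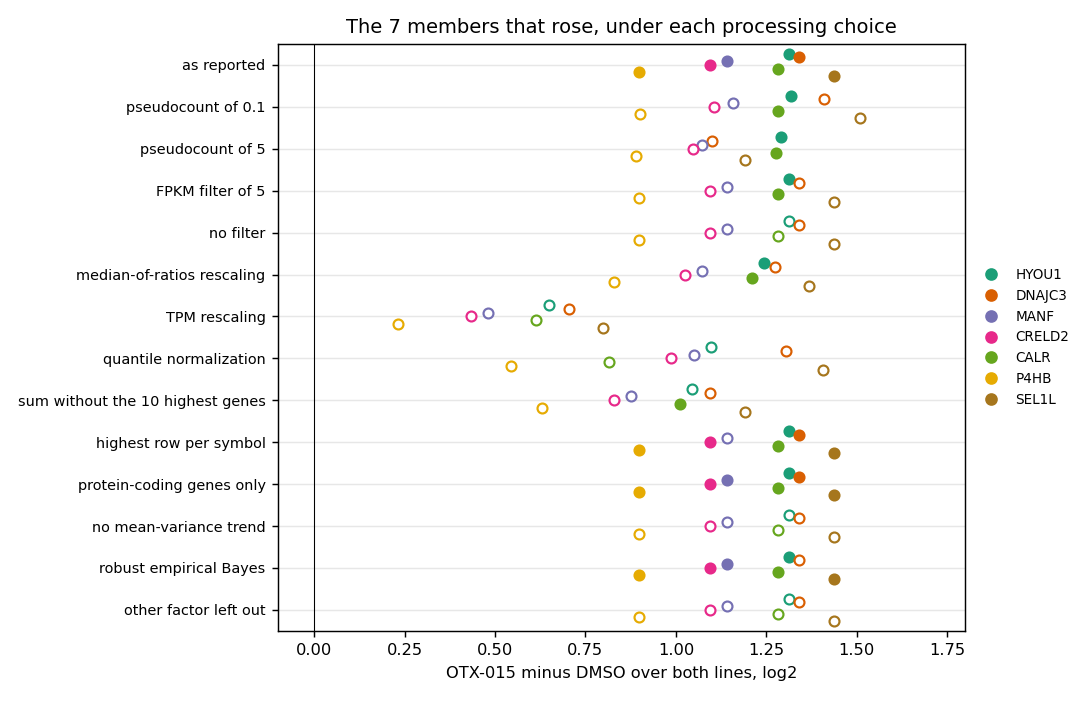
OTX-015 effect (log2) of the 7 members that rose, under the reported fit and 13 other processing choices, with filled points past the limma threshold. All 7 stay above 0 in every setting drawn, and CALR and HYOU1 keep a filled point most often. Only the pseudocount and between-library scaling settings can change the effect itself, and a pseudocount cannot turn its sign here.

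The second comparison asked which members differed between wtBRCA1 and vector cells under both treatments. ERP44, which retrieves disulfide enzymes and unassembled secretory proteins from the Golgi, was higher in wtBRCA1 cells and alone passed the limma fit (2.44% of members, against 4.88% of all genes and 7.29% of those with a mean of at least 10 FPKM). It was at 42.8 FPKM in wtBRCA1 and 15.9 in vector cells with OTX-015, and at 35.3 and 12.0 with DMSO, which gave 1.42 ± 0.33 log2 (SE; adjusted p in limma = 0.0282). Both wtBRCA1 libraries lay above both vector libraries, but ERP44 was no longer called under TPM or quantile rescaling or with no filter. No member was lower past the threshold, where 3.41% and 5.28% of those genes were. At an unadjusted p under 0.05 in the same limma fit, 9 members were higher and 2 lower. The same counts over all 18294 genes tested were 2413 and 1880. The treatments are no replicates of BRCA1 restoration, so a difference due to BRCA1 and other differences between the lines cannot be told apart. The lines also differed in the 10 epithelial markers, of which 2 were higher and 4 lower in wtBRCA1 cells in the same fit, and the pair given next was chosen after their values were seen. KRT5, a basal keratin, was at 573 FPKM in wtBRCA1 and 23.2 in vector cells with OTX-015, and at 980.3 and 29.4 with DMSO. KRT19, a luminal keratin, was at 1.39 FPKM in wtBRCA1 and 234 in vector cells with OTX-015, and at 3.97 and 124 with DMSO. The part of this difference in the line effects of the ER genes was not tested.

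The median line effect over the 41 members was 0.09 log2, against 0.05 for all genes. HSPA5 was at 305 FPKM in wtBRCA1 and 149 in vector cells with OTX-015, and at 168 and 93.8 with DMSO, and just missed the threshold (0.93 ± 0.26 log2, SE, limma adjusted p = 0.0538). P4HB, with 779 and 529 FPKM in wtBRCA1 and vector cells with OTX-015, and 499 and 237 with DMSO, was at 0.81 ± 0.23 log2 (limma adjusted p = 0.0561). Robust estimation of the spread called HSPA5 and P4HB as well as ERP44, and restriction to protein-coding genes called these and CALR. ATF6 was higher by 1.07 ± 0.34 log2 and DNAJC10 by 1.04 ± 0.32, and neither passed. SEL1L and EDEM2 lay on the other side, with -0.79 ± 0.34 and -0.93 ± 0.37 log2, also not past the threshold. HYOU1, MANF, CRELD2 and SEC61G, by contrast, had line differences between -0.26 and 0.02 log2. Among the other lists, PHGDH, which starts serine synthesis (1.97 log2), ATF3 (1.41), the oxidoreductase-like subunit TUSC3 (2.11), NPLOC4, a cofactor of the p97 segregase (1.15), the signal peptidase subunit SPCS3, QSOX1 and HSPB1 (1.65) were higher in wtBRCA1 cells in the same limma fit. The ATF4 targets TRIB3 and DDIT4 were lower, and no COPII gene passed.

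**Figure D5:**
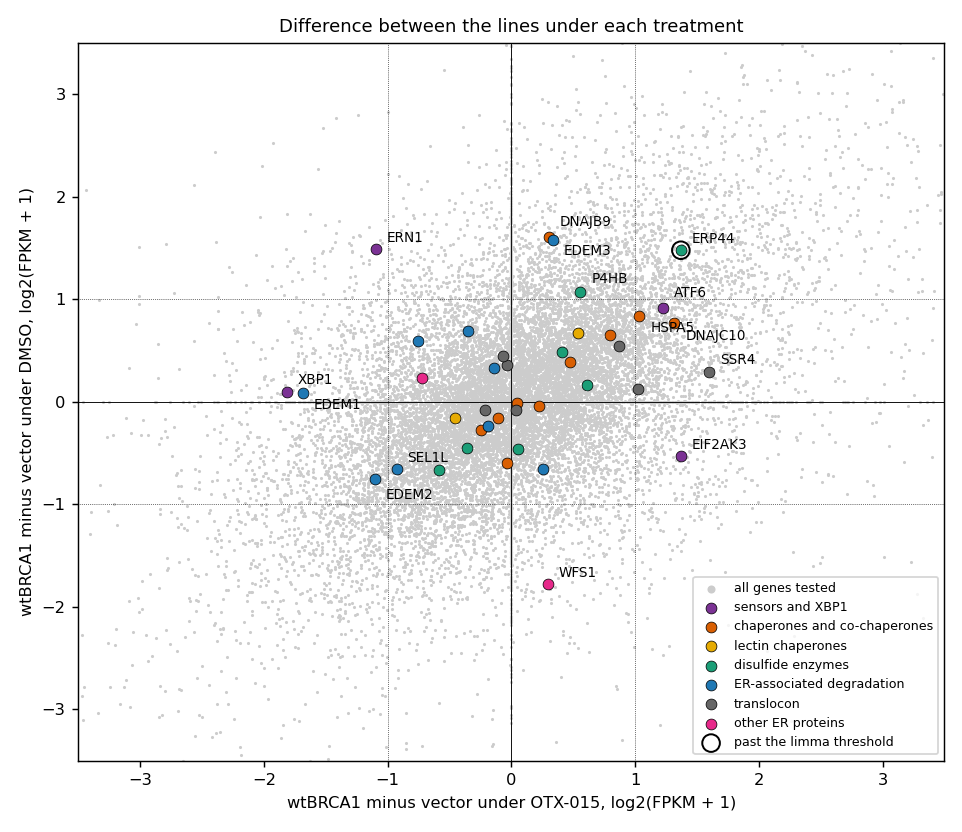
wtBRCA1 minus vector on the log2(FPKM + 1) scale under OTX-015 (horizontal) and under DMSO (vertical), 1 point per gene, members coloured by role and all genes tested in grey, with genes beyond the axes not drawn. ERP44, ringed, is past 1 on both axes, while XBP1, EDEM1 and WFS1 lie close to an axis and ERN1 has opposite signs on the axes.

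Under OTX-015 the lines were at least 1 log2 apart for 11 members (26.8%), where 27.7% of all genes were. Of these, ATF6, EIF2AK3, HSPA5, DNAJC10, ERP44, SSR3 and SSR4 were higher in wtBRCA1 cells and ERN1, XBP1, EDEM1 and EDEM2 lower. Under DMSO they were that far apart for 6 members (14.6%), where 26.5% of all genes were. ERN1, DNAJB9, P4HB, ERP44 and EDEM3 were then higher in wtBRCA1 cells and WFS1 lower. ERP44 alone was at least 1 log2 higher under both treatments, where 6.10% of all genes were, and no member was that much lower under both, where 4.43% were. ERN1 was at 4.08 FPKM in wtBRCA1 and 9.85 in vector cells with OTX-015, but at 3.53 and 0.614 with DMSO, and so changed side with the treatment. XBP1 was at 12.0 FPKM in wtBRCA1 and 44.8 in vector cells with OTX-015, and at 55.3 and 51.6 with DMSO, so the lines were apart only in the treated pair.

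The third comparison set the response of wtBRCA1 cells against that of vector cells, for which the 4 libraries leave no test. BRCA1 itself differed between the treatments in wtBRCA1 cells, and its part was not tested. The wtBRCA1 response was higher by at least 1 log2 for EIF2AK3 (1.90), SSR4 (1.30) and WFS1 (2.08). It was lower by at least 1 log2 for ERN1 (-2.58), XBP1 (-1.91), EDEM1 (-1.77), SYVN1 (-1.34), DNAJB9 (-1.31), EDEM3 (-1.24) and DERL1 (-1.04). These 3 and 7 of 41 members (7.32% and 17.1%) compare with 13.2% and 14.0% of all genes, and among genes with a mean of at least 10 FPKM 2 and 5 of 36 members compare with 8.89% and 9.90%.

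OTX-015 effects were listed by presence of a searched promoter motif, with no test of the difference. The 13 with a motif had effects of -1.16 to 1.31 log2 with a median of 0.49, and 3 of them rose (HYOU1, CALR and CRELD2). The 26 with a promoter but no motif had effects of -0.44 to 1.46 log2 with a median of 0.59, and 4 rose (DNAJC3, MANF, P4HB and SEL1L). Of all genes tested 3.66% rose, and 6.83% of those with a mean of at least 10 FPKM. The median of all genes was 0.03 log2. With no test, these counts are no result about the motifs. XBP1 and HSPA5, whose sites are printed above, lay at -1.16 and 0.76 log2.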

How the data were processed

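Poly(A)-selected RNA was sequenced from directional libraries, per the labels' protocols, with 1 library in each of 4 groups. The deposited values are FPKM per gene. TopHat2, Cufflinks and the hg38 build are named, per the submitters' processing notes, as what the authors used. Not given in the sources used here are versions, annotation release, scaling between libraries and use of strand. Depth is unknown. Short structural RNA genes (7513, by GENCODE 29 type or name) were left out and rows sharing a symbol (68 symbols) were summed. Genes at 1 FPKM or more in a library (18294) were analysed as log2(FPKM + 1), which understates changes of low genes. limma 3.58.1 (R 4.3.3) was fitted with line and treatment as terms and a mean-variance trend, with Benjamini-Hochberg adjustment over all genes. The procedure was tested on data simulated from the same additive fit with random spread. That cannot show how the p behaves where the lines respond differently. Pairs of libraries were called at 1 log2, with no test. The members, roles, lists and tests were chosen with earlier results of these data known. All members are named. Of the other lists, members past the threshold, ATF4 and DDIT3 are named. The result of 1 such gene is not reported here. Markers serve as a check of the cell type. Promoters are from RefSeq. Python 3.11.15, pandas 2.3.3, numpy 2.4.6 and matplotlib 3.10.9 were used.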

Additional observations from a re-analysis of the deposited data

Results flagged for a closer look

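For 4 members the lines moved in opposite directions under OTX-015, by at least 0.25 log2 each (9.76% of 41, against 13.3% of all genes tested and 10.5% of those with a mean of at least 10 FPKM), and the difference was not tested because each group is 1 library. The response in wtBRCA1 cells minus that in vector cells was 1.90 log2 for EIF2AK3 (1.56 in wtBRCA1 and -0.34 in vector cells), 1.30 for SSR4 (0.84 in wtBRCA1 and -0.46 in vector cells), 0.91 for DERL2 (0.48 in wtBRCA1 and -0.43 in vector cells) and -1.77 for EDEM1 (-0.79 in wtBRCA1 and 0.98 in vector cells). EIF2AK3 and EDEM1 are below 30 FPKM in every library. No group has enough libraries for a search for outlying samples.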

How the results depend on the processing

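Of the 7 members called higher for OTX-015, 2 were called with a pseudocount of 0.1 or 5, at a filter of 5 FPKM and after median-of-ratios rescaling, 1 after scaling to the sum without the 10 highest genes (chosen after seeing the data), and 0 with no filter, after TPM rescaling or quantile normalization, without the trend or without the line term. Among protein-coding genes 9 were called, with CANX and OS9 added, and with robust estimation 7, with OS9 in place of DNAJC3. The count of members lower, 0 as reported, was 1 under TPM rescaling (DNAJB11). Members at least 1 log2 higher in both lines numbered 6, and 0 under TPM rescaling and 3 with the sum without the 10 highest genes. Members at least 1 log2 lower in both lines were 0, and 1 under TPM rescaling. The 1 member called higher for wtBRCA1 came to 0 with no filter, TPM rescaling, quantile normalization, the sum without the 10 highest genes, no trend or no treatment term, to 3 with robust estimation and to 4 among protein-coding genes. With each library left out, which needs the other factor dropped too, both counts ranged from 0 to 0, in designs too small to say more. No effect of a called member changed sign. With all libraries kept, only the scaling settings could have changed a sign, because the others leave the effect or its direction fixed. The causes were not tested, except that dropping a term or a library leaves the other factor in the residual. TPM rescaling lowers the median of all genes by 0.51 log2, and the sum without the 10 highest genes by 0.22. No paired analysis was possible because each group has 1 library and the labels give no replicate numbers; the line term of the reported fit already compares the treatments within each line. Unknown depth limits the reading of members below 10 FPKM.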
